A study of Homo sapiens with 9 samples.

Results

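The germ line and meiosis genes described here are 39 protein-coding genes chosen by gene symbol: factors that make, protect or run the meiosis of sperm and egg precursors. All 39 were found among the 40332 gene symbols of the count table, and 27 of them passed the filter on low counts and were tested. They were measured by RNA-seq in wild-type H1, an established line of human embryonic stem cells, with 3 groups and 3 libraries in each. The PXGL group was held in the naive state, a condition resembling the preimplantation epiblast, by LIF and small molecules that block MEK, tankyrase and protein kinase C. PXGL-derived cells in plain N2B27, the basal medium lacking these additions, formed the second group. The inhibitor group was in N2B27 with 5 µM EPZ-6438, which blocks the methyltransferase activity of EZH2, for 3 days. The sources give no duration for the N2B27 group, so a difference in time out of PXGL and the inhibitor cannot be told apart. The design asks whether EZH2 holds back the primitive endoderm fate in human cells, as part of a study that also used mouse cells not analysed here. The line is a single one, all groups share it, and the sources do not say whether the libraries of a group came from separate cultures.

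Germ cells silence transposons with PIWI proteins loaded with small piRNAs, and pair their chromosomes in meiosis along a protein axis that the synaptonemal complex zips together while programmed breaks are repaired by recombination. In somatic and pluripotent cells many genes of these programs are kept off by DNA methylation of their CpG-rich promoters and by a variant Polycomb repressive complex 1 (PRC1.6), whose E2F6 and MGA-MAX subunits recognise an E2F-type site and the E-box. Naive human pluripotent cells are known for low DNA methylation, and EZH2 is the catalytic subunit of Polycomb repressive complex 2 (PRC2), which places H3K27me3.

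The promoters of the members that changed with the inhibitor are shown first, because these members carry that comparison, together with the promoter of STK31, the member described in full that held both motifs searched for. Sequences are the 250 bases before the gene's start in RefSeq on GRCh38.p14, printed 5′ to 3′ along the gene's own strand, and 32 of the 39 members matched an entry. Capitals mark the E-box CACGTG and the E2F core TCCCGC, read on both strands (GCGGGA on the reverse); these motifs do not overlap each other in any promoter printed.
MAEL, chr1:166975332-166975581, plus strand: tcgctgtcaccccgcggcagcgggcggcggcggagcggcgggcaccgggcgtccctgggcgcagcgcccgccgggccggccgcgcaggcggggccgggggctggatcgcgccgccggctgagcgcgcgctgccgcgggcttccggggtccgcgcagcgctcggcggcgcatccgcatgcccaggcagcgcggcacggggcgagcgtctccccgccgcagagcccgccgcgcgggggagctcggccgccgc
SYCP3, chr12:101739463-101739712, minus strand: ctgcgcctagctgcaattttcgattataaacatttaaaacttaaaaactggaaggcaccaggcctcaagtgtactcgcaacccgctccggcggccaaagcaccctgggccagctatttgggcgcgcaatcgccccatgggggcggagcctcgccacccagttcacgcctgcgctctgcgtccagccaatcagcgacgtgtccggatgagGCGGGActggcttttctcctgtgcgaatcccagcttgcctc
MEIOC, chr17:44656218-44656467, plus strand: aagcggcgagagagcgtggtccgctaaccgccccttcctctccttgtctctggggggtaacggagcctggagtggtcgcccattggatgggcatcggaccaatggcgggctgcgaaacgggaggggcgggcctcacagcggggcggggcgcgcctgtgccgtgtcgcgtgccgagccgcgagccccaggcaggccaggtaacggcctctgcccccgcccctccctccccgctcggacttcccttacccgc
MAGEB2, chrX:30215313-30215562, plus strand: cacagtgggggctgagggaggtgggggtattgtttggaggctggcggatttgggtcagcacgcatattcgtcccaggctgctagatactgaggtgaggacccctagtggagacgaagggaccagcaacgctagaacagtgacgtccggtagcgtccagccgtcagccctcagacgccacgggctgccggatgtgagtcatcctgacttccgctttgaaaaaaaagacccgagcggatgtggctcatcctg
DND1, chr5:140673577-140673826, minus strand: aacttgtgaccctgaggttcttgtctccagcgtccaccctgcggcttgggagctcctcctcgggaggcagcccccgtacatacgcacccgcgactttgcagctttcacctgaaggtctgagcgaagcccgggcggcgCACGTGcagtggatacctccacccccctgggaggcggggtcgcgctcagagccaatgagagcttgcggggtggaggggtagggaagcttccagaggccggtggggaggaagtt
STK31, chr7:23709969-23710218, plus strand: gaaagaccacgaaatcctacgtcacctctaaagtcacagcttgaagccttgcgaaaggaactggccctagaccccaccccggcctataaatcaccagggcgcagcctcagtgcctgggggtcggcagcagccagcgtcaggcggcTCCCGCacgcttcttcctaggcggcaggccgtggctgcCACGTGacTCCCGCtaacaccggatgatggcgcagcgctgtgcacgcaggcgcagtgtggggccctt

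HORMAD1 and TEX15 also changed with the inhibitor and are not shown. The MAEL window held no match to either motif, and its CpG observed to expected ratio of 1.12 was above the median of 0.74 over 15843 protein-coding promoters of the same length. The ratio was 0.88 for SYCP3, 0.83 for MEIOC, 0.70 for MAGEB2, 0.64 for DND1 and 0.75 for STK31. An E-box occurred in 5 of the 32 member promoters (15.6%) and in 7.84% of all protein-coding promoters, and the E2F core occurred in 13 (40.6%) and in 30.8%. The E-box promoters were those of STK31, TDRD1, TDRD12, DND1 and BRDT. In N2B27 against PXGL, STK31 and BRDT were lower, DND1 was higher, and TDRD1 and TDRD12 were not called. A match says only that these letters occur in the window.

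Libraries held 14482124 to 18358519 counts, so 3 counts correspond to 0.164 to 0.211 CPM per library (CPM is a count scaled to the library's TMM-adjusted size, the unit of all levels below). In PXGL, replicate 1 differed most from its group, with a chi-square per degree of freedom of 19.6 and 26.3 against them, compared with 3.41 between replicates 2 and 3. Markers of human embryonic stem cells were present in every group, 8 of 8 with counts, at a summed 4138.6 to 4532.7 CPM in PXGL, 6566.4 to 6598.4 in N2B27 and 5305.1 to 5341.5 with the inhibitor. Of 6 primordial germ cell markers 6, 5 and 6 had counts, with NANOS3 at 0 in N2B27; their sum was 837.4 to 1006.1, 746.3 to 789.9 and 650.1 to 704.9 CPM. Most of that sum was DPPA3, a gene that naive cells also express. Among 6 meiotic germ cell markers SPO11 was at 0 in all libraries, and their sum, 56.1 to 61.8, 21.4 to 23.5 and 25.7 to 29.7 CPM, was nearly all SYCP3. The 8-cell-like list, 8 of 8 with counts, summed to 64.4 to 70.9, 90.0 to 93.1 and 208 to 221.5 CPM. Trophectoderm markers, 5 of 5 with counts, summed to 10.3 to 11.1, 13.9 to 15.1 and 22.9 to 29.1 CPM. Fibroblast markers, 6, 4 and 6 of 7 with counts, summed to 14.8 to 20, 165 to 179.7 and 85.6 to 90.2 CPM, with LUM at 0 in PXGL, DCN, LUM and COL3A1 at 0 in N2B27 and DCN at 0 with the inhibitor. THY1 alone gave a mean of 0.623, 118.5 and 43.5 CPM of that sum, and COL1A1 and COL1A2 gave nearly all the rest. The part of these marker lists in the results was not tested, and in bulk RNA fewer cells of a type and less RNA per cell cannot be told apart.

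Many germ line genes were lower in N2B27 than in PXGL, and a few were higher with the inhibitor than without it. In N2B27 against PXGL, 14 of the 27 tested members were lower (51.9%, where 28.7% of all 15179 tested genes were lower) and 3 were higher (11.1%, where 27.3% of all tested genes were higher). The median log2 fold change was -0.71 over tested members and -0.03 over all tested genes. With EPZ-6438 against N2B27, 5 members were higher (18.5%, against 14.2% of all tested genes) and 2 were lower (7.41%, against 10.6%). These shares lie near those of all genes, and the medians were 0.16 and 0.01. In the inhibitor group against PXGL, 17 members were lower (63%, against 28% of all tested genes) and 3 were higher (11.1%, against 28.1%), with medians of -0.83 and 0. The 3 comparisons share libraries, so their calls are not separate evidence. The filter can keep a gene that is expressed in 1 group only, and the 12 members below it are given at the end.

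**Figure D1:**
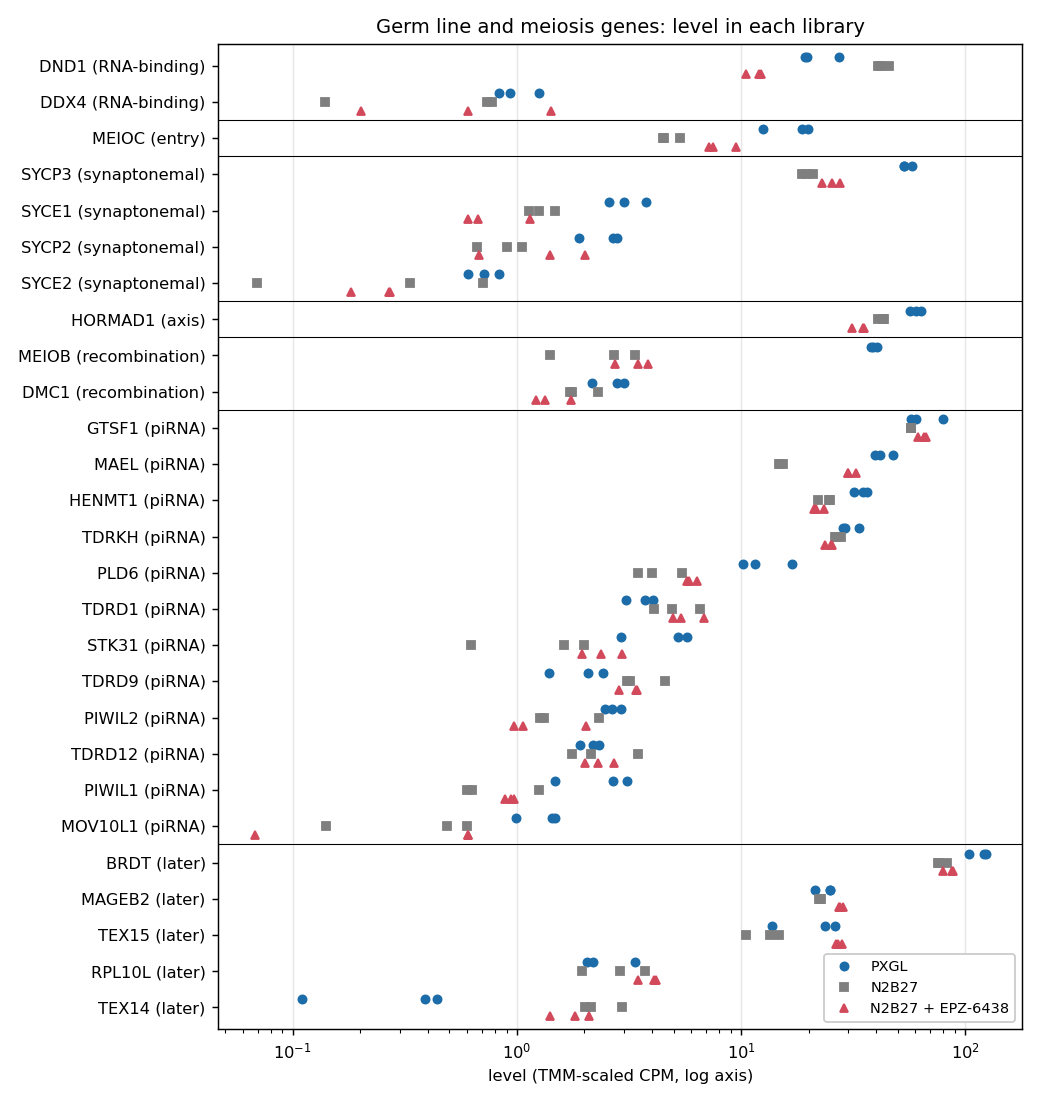
Level of each of the 27 tested members in every library, as TMM-scaled CPM on a log axis, with genes grouped by role (labels in parentheses). Circles are PXGL, squares N2B27 and triangles N2B27 with EPZ-6438, 3 libraries each; MEIOB, MAEL and SYCP3 are highest in PXGL, and DND1 is highest in N2B27.

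Compared per length, in CPM per kilobase of exon, the most abundant members in PXGL were BRDT at 26.8, GTSF1 at 26.1 and HORMAD1 at 25.1, followed by MEIOB at 17.0, MAGEB2 at 14.8, SYCP3 at 14.3, HENMT1 at 14.2, DND1 at 13.8 and MAEL at 13.6. In N2B27 the order began with DND1 at 26.7, GTSF1 at 22.7, BRDT at 18.1 and HORMAD1 at 17.6, and MEIOB was at 1.09. With the inhibitor it began with GTSF1 at 25.6, BRDT at 19.6, MAGEB2 at 17.2 and HORMAD1 at 14.1. Genes that start meiosis and its DNA breaks were at or below the floor in every group: STRA8 was at 0.0370 to 0.0467 CPM per kilobase, and SPO11 had no count.

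Among germ cell RNA-binding factors, DND1, which guards germ cell identity by binding mRNA, had the largest response to the inhibitor of any tested member. It lies on chromosome 5 (140670794 to 140673586, minus strand, GENCODE 29 on GRCh38). Its levels were 27.4, 19.3 and 19.6 CPM in PXGL, 40.7, 42.2 and 45.5 in N2B27, and 12.3, 10.5 and 12 with the inhibitor. The 3 groups did not overlap, with N2B27 highest and the inhibitor lowest. DND1 was 3.70-fold lower with EPZ-6438 than in N2B27 (11.6 ± 0.979 against 42.8 ± 2.47 CPM, mean ± SD, n = 3, log2 -1.89, SE 0.13, adjusted p = 2.30e-08). It was 1.94-fold higher in N2B27 than in PXGL (log2 0.95, SE 0.12, adjusted p = 5.66e-06). Without PXGL replicate 1 the difference between N2B27 and PXGL was log2 1.14. All 1605 exonic bases of DND1 also lie in exons annotated to WDR55 on the opposite strand, and DND1 carried fractional counts in 9 of 9 libraries. WDR55 was at 71.7 CPM in PXGL, 84.4 in N2B27 and 75.1 with the inhibitor. It was 1.18-fold higher in N2B27 than in PXGL (adjusted p = 0.0158), the same direction as DND1. The inhibitor against N2B27 did not pass for WDR55 (adjusted p = 0.125). DDX4, the helicase VASA of germ granules, was at 1.01 ± 0.223 CPM in PXGL, 0.549 ± 0.355 in N2B27 and 0.744 ± 0.622 with the inhibitor, and passed in no comparison.

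MEIOC, which with its partner proteins keeps cells in the meiotic program once they have entered it, lies on chromosome 17 (44656404 to 44690308). It was at 12.5, 18.8 and 19.9 CPM in PXGL, 4.53, 4.5 and 5.33 in N2B27, and 9.46, 7.48 and 7.19 with the inhibitor. Each group was separate from the others, with the inhibitor libraries between PXGL and N2B27. MEIOC fell 3.56-fold on leaving PXGL (log2 -1.83, SE 0.19, adjusted p = 4.07e-07) and rose 1.68-fold with the inhibitor (4.79 ± 0.475 to 8.04 ± 1.24 CPM; log2 0.75, SE 0.20, adjusted p = 0.0112). The second call was lost at adjusted p = 0.0506 with N2B27 replicate 1 dropped and at 0.067 with inhibitor replicate 1 dropped. MEIOC was 2.12-fold below PXGL in the inhibitor group (adjusted p = 6.04e-05). MEIOC shares 1824 of its 8609 exonic bases with an antisense transcript and had fractional counts in 9 of 9 libraries. It also shares 536 bases with CCDC43 on the opposite strand and 451 with AC091152.4 on the same strand. CCDC43 was at 31.8 CPM in PXGL, 37.3 in N2B27 and 37.2 with the inhibitor. It was 1.17-fold higher in N2B27 than in PXGL (adjusted p = 0.0299) and did not pass for the inhibitor against N2B27 (0.988).

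Of 4 tested synaptonemal complex genes, SYCP3, SYCP2 and SYCE1 were lower in N2B27 than in PXGL (28.7% of all tested genes were lower), and SYCP3, SYCE1 and SYCE2 were lower with the inhibitor than in PXGL (28% of all tested genes were lower). SYCP3, a component of the axis core, lies on chromosome 12 (101728648 to 101739472) and measured 58.1, 53.6 and 53.1 CPM in PXGL, 20.9, 18.8 and 19.6 in N2B27, and 25.3 ± 2.23 (lowest library 23.0) with the inhibitor. PXGL lay far above the others, and the inhibitor libraries all lay above N2B27. SYCP3 fell 2.78-fold on leaving PXGL (log2 -1.47, SE 0.09, adjusted p = 8.99e-10) and rose 1.28-fold with the inhibitor (19.8 ± 1.03 to 25.3 ± 2.23 CPM; log2 0.36, SE 0.10, adjusted p = 0.0116). Adjusted p for the inhibitor was 0.0556 once N2B27 replicate 2 was dropped and 0.0653 once inhibitor replicate 1 was dropped, so the call ended in each case. SYCP3 shares 566 of 3829 exonic bases with CHPT1 on the opposite strand, which was 1.61-fold lower in N2B27 than in PXGL (adjusted p = 4.13e-05) and at 30 against 32.1 CPM with and without the inhibitor (adjusted p = 0.548).

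The other members of the complex were scarce. SYCP2, another axis core protein, was at 2.80, 2.68 and 1.89 CPM in PXGL and 0.905, 1.05 and 0.667 in N2B27, a 2.80-fold decrease (adjusted p = 0.00432), and at 2.01, 1.40 and 0.678 with the inhibitor, which overlaps both groups. SYCE1, a central element protein, fell 2.42-fold on leaving PXGL (3.12 ± 0.608 to 1.29 ± 0.174 CPM, adjusted p = 0.00275) and was 3.85-fold below PXGL with the inhibitor (0.810 ± 0.298 CPM, adjusted p = 0.00012). CYP2E1 on the opposite strand shares 2064 of the 3874 exonic bases of SYCE1 and was itself 2.06-fold lower in N2B27 than in PXGL (adjusted p = 0.042). SYCE2, its partner in the central element, was lower in the inhibitor group than in PXGL (0.241 against 0.716 CPM, adjusted p = 0.049), a call that ended without any 1 of the 3 PXGL or 3 inhibitor libraries or without N2B27 replicate 3, at adjusted p of 0.0544 to 0.144. SYCE2 shares 352 of 1458 exonic bases with GCDH on the opposite strand, which did not pass for the inhibitor against PXGL (adjusted p = 0.927). SYCP2 against PXGL with the inhibitor did not pass (adjusted p = 0.0627), but did without inhibitor replicate 1 (0.0235) or PXGL replicate 3 (0.0445).

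HORMAD1, which marks unpaired chromosome axes and is also known as a cancer-testis antigen, was highest in PXGL and lowest with the inhibitor. It lies on chromosome 1 (150698060 to 150720888) and has no annotated exon overlap. PXGL libraries were at 57.0, 63.8 and 60.3 CPM, N2B27 at 43.3, 43.0 and 40.7, and the inhibitor at 35.4, 35.0 and 31.4. The groups did not overlap. HORMAD1 was 1.43-fold lower in N2B27 than in PXGL (log2 -0.51, SE 0.08, adjusted p = 4.16e-05). It was 1.25-fold lower with the inhibitor than in N2B27 (33.9 ± 2.20 against 42.3 ± 1.45 CPM, log2 -0.32, SE 0.08, adjusted p = 0.00916). The inhibitor call ended without inhibitor replicate 3 (adjusted p = 0.0552), which also left 1 member lower in that comparison, DND1. Against PXGL, HORMAD1 was 1.78-fold lower with the inhibitor (adjusted p = 2.14e-07).

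MEIOB, a single-strand DNA binding protein needed for recombination repair, had the largest difference between PXGL and N2B27 of the 27 tested members. It lies on chromosome 16 (1833987 to 1884294) and was at 40.6, 38.0 and 38.8 CPM in PXGL, 2.72, 3.38 and 1.40 in N2B27, and 2.75, 3.83 and 3.46 with the inhibitor. PXGL stood clear of the other libraries, which overlapped one another. MEIOB fell 15.7-fold on leaving PXGL (39.1 ± 1.34 to 2.50 ± 1.01 CPM; log2 -3.97, SE 0.19, adjusted p = 2.83e-11), and with the inhibitor it was at 3.35 ± 0.549 CPM, which did not pass against N2B27 (log2 0.43, SE 0.24, adjusted p = 0.208) and was 11.6-fold below PXGL (adjusted p = 6.70e-11). FAHD1 on the opposite strand, sharing 177 of 2303 exonic bases, was 1.37-fold higher in N2B27 than in PXGL, the other direction. DMC1, the meiotic strand exchange recombinase, was at 2.66 ± 0.440 CPM in PXGL, 1.93 ± 0.319 in N2B27 and 1.43 ± 0.275 with the inhibitor. It was called only for the inhibitor against PXGL among the 3 comparisons (1.85-fold lower, adjusted p = 0.0158), and that call ended without PXGL replicate 2 (0.0621) or inhibitor replicate 2 (0.0504) or 3 (0.0586).

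**Figure D2:**
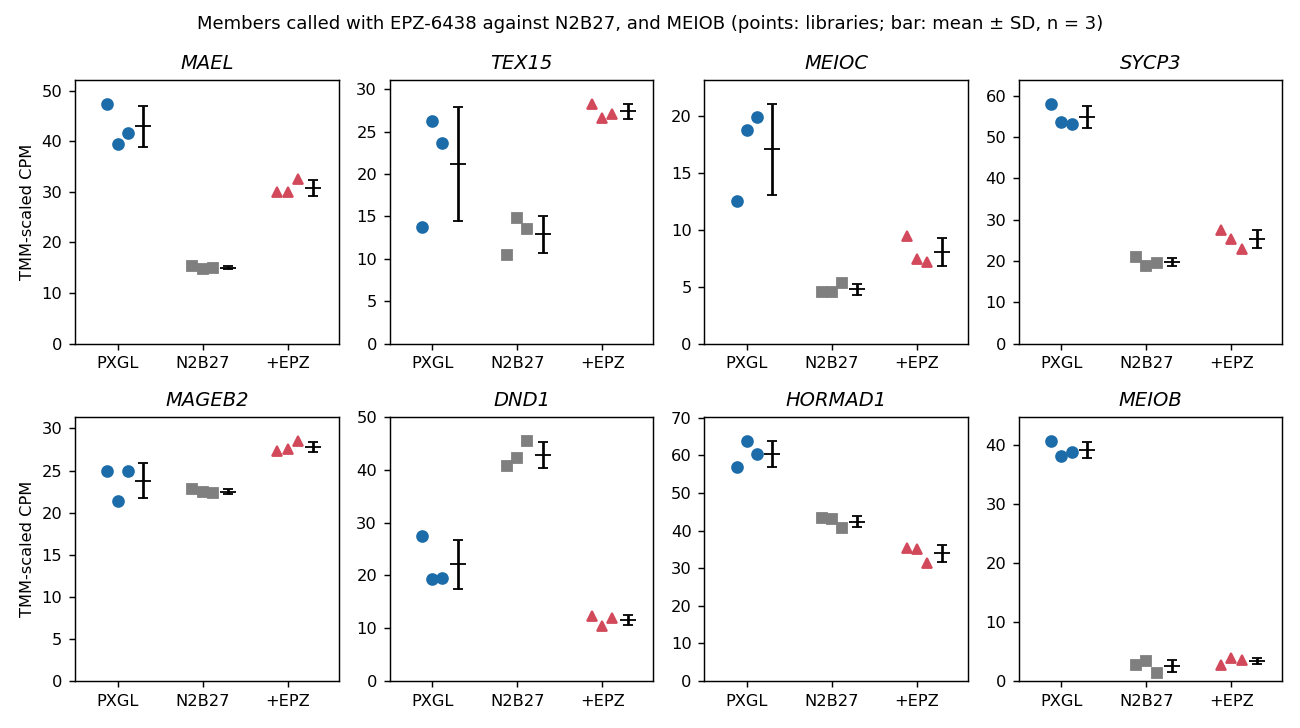
Levels in TMM-scaled CPM (linear axis from 0) of the 7 members called with EPZ-6438 against N2B27 and of MEIOB. Coloured points are the 3 libraries of each group and black bars the mean ± SD; the inhibitor lies between N2B27 and PXGL for MAEL, MEIOC and SYCP3, above N2B27 for TEX15 and MAGEB2, and below both other groups for DND1 and HORMAD1.

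Of 14 PIWI-piRNA pathway genes 12 were tested, and on leaving PXGL 6 fell, 1 rose and 5 did not pass, where 28.7% of all tested genes were lower and 27.3% higher. MAEL, a nuage protein needed for transposon silencing in the germ line, was the member with the smallest adjusted p among increases with the inhibitor. It lies on chromosome 1 (166975582 to 167022214), with no annotated exon overlap and whole counts in every library. MAEL was at 47.4, 39.5 and 41.7 CPM in PXGL, 15.4, 14.7 and 14.9 in N2B27, and 29.9, 30.0 and 32.6 with the inhibitor. The groups were separate, with the inhibitor libraries between the others. MAEL fell 2.86-fold on leaving PXGL (log2 -1.51, SE 0.10, adjusted p = 1.26e-09) and rose 2.05-fold with EPZ-6438 (15.0 ± 0.351 to 30.8 ± 1.54 CPM; log2 1.04, SE 0.10, adjusted p = 9.34e-07). Against PXGL the inhibitor group was 1.39-fold lower (adjusted p = 0.000301).

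PLD6, the mitochondrial nuclease ZUCCHINI that helps to generate piRNAs, was at 16.9, 11.6 and 10.2 CPM in PXGL, 5.43, 4.01 and 3.47 in N2B27, and 6.37, 5.84 and 5.76 with the inhibitor. It fell 3.00-fold on leaving PXGL (adjusted p = 6.97e-06). All inhibitor libraries lay above all N2B27 libraries, but the difference did not pass (log2 0.48, SE 0.22, adjusted p = 0.133) unless PXGL replicate 1 was left out (0.0442). PLD6 shares 450 of 2560 exonic bases with AC055811.2 on the same strand and 176 with MPRIP on the opposite strand. MPRIP was at 244.7 CPM in PXGL and 199.2 in N2B27 (1.23-fold lower, adjusted p = 0.00281). STK31, a tudor and kinase domain protein, fell 3.25-fold on leaving PXGL (5.76, 2.90 and 5.22 CPM against 0.627, 1.62 and 2.00; adjusted p = 0.000664). With the inhibitor it was at 2.95, 1.95 and 2.37 CPM, which overlapped N2B27 (adjusted p = 0.158) and PXGL. The 1.91-fold lower level than in PXGL (adjusted p = 0.0237) did not pass without PXGL replicate 3 (0.0609), inhibitor replicate 2 (0.0965) or inhibitor replicate 3 (0.0633).

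HENMT1, which methylates the 3′ ends of piRNAs, fell 1.44-fold on leaving PXGL (36.5, 35.0 and 32.0 CPM to 24.8, 24.9 and 22.1; adjusted p = 0.000165) and was at 21.1, 23.4 and 21.6 CPM with the inhibitor, overlapping N2B27 (adjusted p = 0.419). PIWIL1, a PIWI protein, fell 2.91-fold on leaving PXGL (2.42 ± 0.845 to 0.829 ± 0.368 CPM, adjusted p = 0.00365) and was 2.59-fold below PXGL with the inhibitor (adjusted p = 0.00685). PIWIL2, another PIWI protein, was at 2.68 ± 0.218, 1.64 ± 0.593 and 1.36 ± 0.586 CPM and passed for the inhibitor against PXGL (adjusted p = 0.0225). That call ended without PXGL replicate 2 (0.0652) or inhibitor replicate 1 (0.085) or 2 (0.0987), and N2B27 against PXGL, at adjusted p = 0.0838, passed without N2B27 replicate 2 (0.032). MOV10L1, the helicase that feeds piRNA precursors into the pathway, was 3.12-fold lower in N2B27 than in PXGL (1.30 ± 0.274 to 0.409 ± 0.239 CPM, adjusted p = 0.0237) and 2.99-fold lower with the inhibitor (adjusted p = 0.0268). Leaving out N2B27 replicate 1 or 2, or PXGL replicate 2 or 3, ended the former (0.0516 to 0.111), and leaving out PXGL replicate 2 or 3 or inhibitor replicate 3 the latter (0.0626 to 0.113).

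TDRD9 was the pathway member that rose on leaving PXGL. TDRD9, a helicase of the nuclear silencing branch, rose 1.85-fold on leaving PXGL (2.08, 2.41 and 1.39 CPM to 4.60, 3.09 and 3.20; adjusted p = 0.0103) and was at 3.42, 3.41 and 2.85 CPM with the inhibitor, 1.64-fold above PXGL (adjusted p = 0.033). The first call ended without N2B27 replicate 1 (0.0656) or PXGL replicate 3 (0.0506), and the second without PXGL replicate 3 (0.139) or inhibitor replicate 1 (0.0846) or 2 (0.0857), or by the Wald test of DESeq2 (0.0519). TDRD1, a scaffold that binds PIWI proteins, was at 3.07, 3.73 and 4.05 CPM in PXGL, 4.94, 6.54 and 4.07 in N2B27, and 4.96, 6.87 and 5.42 with the inhibitor. Only the inhibitor against PXGL passed of its 3 comparisons (1.59-fold higher, adjusted p = 0.015, and 0.0877 without inhibitor replicate 2), while N2B27 against PXGL was at adjusted p = 0.057 and passed without N2B27 replicate 3 (0.0274). TDRKH, which recruits PIWI proteins to mitochondria for trimming, was 1.23-fold lower with the inhibitor than in PXGL (30.5 ± 2.82 to 24.8 ± 0.861 CPM, adjusted p = 0.0124). That call ended without PXGL replicate 2 (0.0789) or inhibitor replicate 2 (0.0534). N2B27 was at 26.9 ± 0.796 CPM (adjusted p = 0.108 against PXGL, 0.0373 without PXGL replicate 1). TDRKH shares 436 of 5092 exonic bases with TDRKH-AS1 and 86 with OAZ3, both on the opposite strand. OAZ3 was 2.27-fold lower with the inhibitor than in PXGL (0.583 against 1.34 CPM, adjusted p = 0.0194). TDRD12 was at 2.15 ± 0.211, 2.46 ± 0.906 and 2.35 ± 0.351 CPM and passed in no comparison.

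GTSF1, a zinc finger partner of PIWI proteins, was the most abundant pathway member per length outside PXGL and in PXGL alike. It was at 79.3, 60.5 and 57.6 CPM in PXGL, 57.2, 57.3 and 57.1 in N2B27, and 66.6, 61.8 and 65.5 with the inhibitor. The inhibitor libraries lay above N2B27 without overlap, yet the difference did not pass (log2 0.18, SE 0.10, adjusted p = 0.221). It passed without PXGL replicate 1 (0.0232), or when only N2B27 and the inhibitor were fitted (0.0216). Against PXGL, N2B27 was at adjusted p = 0.0944, and 0.0154 without PXGL replicate 3. Its promoter window had a CpG observed to expected ratio of 0.33, below the median of 0.76 over the 32 member promoters.

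In the group labelled later spermatogenesis, TEX15, which the male germ line needs for transposon silencing and meiotic repair, rose with the inhibitor. The label orders the genes and does not date when each of them acts. It lies on chromosome 8 (30831544 to 30913003) with no annotated exon overlap. TEX15 was at 13.7, 26.3 and 23.7 CPM in PXGL, 10.5, 14.8 and 13.5 in N2B27, and 28.3, 26.6 and 27.1 with the inhibitor. PXGL replicate 1 fell within the N2B27 range, and every inhibitor library was above every other library. TEX15 rose 2.12-fold with EPZ-6438 (12.9 ± 2.18 to 27.4 ± 0.862 CPM; log2 1.08, SE 0.20, adjusted p = 0.000906). On leaving PXGL it fell 1.64-fold (log2 -0.72, SE 0.20, adjusted p = 0.00632; log2 -0.95 without PXGL replicate 1). Against PXGL the inhibitor group did not pass (log2 0.37, adjusted p = 0.106), but did without PXGL replicate 2 (0.0214).

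BRDT, the testis member of the BET bromodomain family, was at 103.6, 120.8 and 123.7 CPM in PXGL, 75.6, 76.3 and 83.1 in N2B27, and 79.7, 87.1 and 87.9 with the inhibitor. It fell 1.48-fold on leaving PXGL (adjusted p = 1.11e-05) and was 1.37-fold below PXGL with the inhibitor (adjusted p = 0.000111), while the inhibitor and N2B27 overlapped (adjusted p = 0.31). MAGEB2, an X-linked cancer-testis gene, rose 1.23-fold with the inhibitor (22.8, 22.4 and 22.3 CPM to between 27.3 and 28.5 CPM; log2 0.30, SE 0.09, adjusted p = 0.0279). The call ended when any 1 of the 6 N2B27 or inhibitor libraries was left out (adjusted p of 0.0604 to 0.0924), and with no low-count filter (0.0654). PXGL was at 25, 21.4 and 24.9 CPM, which did not pass against either group, although the inhibitor against PXGL, at adjusted p = 0.0521, passed without PXGL replicate 1 (0.0235).

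TEX14, which keeps the bridges between dividing germ cells open, was at 0.110, 0.438 and 0.389 CPM in PXGL, from 17 counts over the 3 libraries, and at 2.02, 2.95 and 2.13 in N2B27. It rose 7.43-fold (log2 2.89, SE 0.45, adjusted p = 3.89e-05; log2 2.49 without PXGL replicate 1). With the inhibitor it was at 1.41, 1.82 and 2.10 CPM, 5.58-fold above PXGL (adjusted p = 0.00021; log2 2.48, or 2.08 without PXGL replicate 1). TEX14 shares 169 of 5325 exonic bases with SEPT4-AS1 on the opposite strand and 80 with AC011195.2 on the same strand. RPL10L, a testis-expressed retrocopy of the ribosomal protein gene RPL10, was at 2.53 ± 0.709, 2.86 ± 0.893 and 3.90 ± 0.383 CPM and passed in no comparison of all 9 libraries. RPL10 itself was at 1902.8 CPM in PXGL, so reads assigned to RPL10L are uncertain. The inhibitor against PXGL for RPL10L, at adjusted p = 0.0609, passed without N2B27 replicate 1 (0.0462) or PXGL replicate 1 (0.0106).

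**Figure D3:**
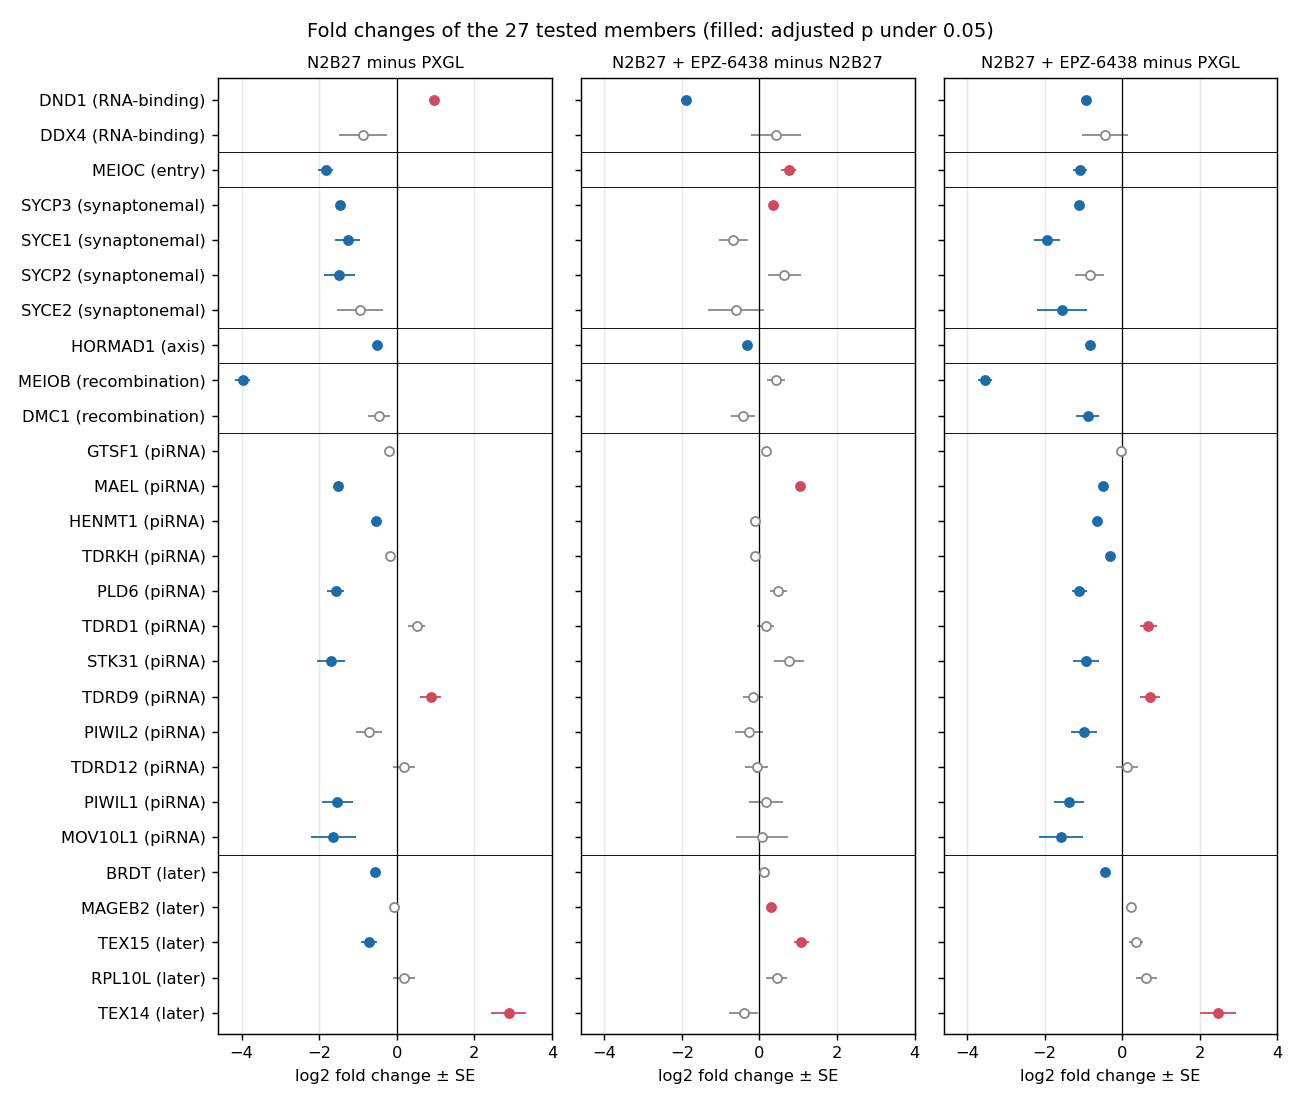
Log2 fold change ± SE of the 27 tested members in the 3 comparisons, with genes grouped by role. Filled red points were higher and filled blue points lower at adjusted p under 0.05, and open points did not pass; 14 points are filled blue in the left panel and 2 in the middle panel.

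Single libraries moved the counts of members. MAEL and TEX15 stayed higher and DND1 stayed lower with the inhibitor against N2B27 in all 9 such fits. The number higher in that comparison was 3 without N2B27 replicate 1, 3 without N2B27 replicate 2 and 2 without inhibitor replicate 1, and it was 7 without PXGL replicate 1. Against PXGL, the number higher with the inhibitor was 5 without PXGL replicate 1 and 1 without inhibitor replicate 2. The number lower in N2B27 against PXGL was 13 to 15 over the same fits.

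The 12 members below the filter are given here by their summed counts. TEX101, a surface protein of germ cells, and SPO11, the enzyme that makes meiotic breaks, had no count in any library. STRA8, the retinoic acid target that starts meiosis, had 2 counts over each group, and NANOS3, a factor of primordial germ cells, had 2 in PXGL, 0 in N2B27 and 2 with the inhibitor. SYCP1, which spans the synaptonemal complex, had 2, 0 and 2 counts, HORMAD2 had 1, 1 and 4, and ASZ1, a germ granule protein, had 1, 4 and 0. DAZL, the translational regulator of germ cells, had 12, 23 and 9 counts, and the ratio of the inhibitor to N2B27 was 0.37 with a counting interval of 0.151 to 0.83. PIWIL4, the nuclear PIWI protein, had 25, 13 and 29 counts after rounding, of which 20 were in 1 inhibitor library. It shares 683 of 4558 exonic bases with FUT4 on the same strand and had fractional counts in 4 libraries. FUT4 was at 12.4, 41.1 and 36 CPM in PXGL, N2B27 and the inhibitor, so reads assigned to PIWIL4 are uncertain. The PIWIL4 ratio of the inhibitor to N2B27 was 2.11 (1.06 to 4.42). Neither ratio was called when tested with no low-count filter by edgeR (adjusted p = 0.327 for DAZL, 0.435 for PIWIL4) or by the Wald test of DESeq2 (0.341 and 0.48). BOLL, a relative of DAZL, had 17, 1 and 0 counts, and SMC1B, the meiotic cohesin subunit, had 11, 7 and 0. PRDM9, which places recombination hotspots, had 0, 8 and 3. Intervals and floors cover counting error only. With no low-count filter, PRDM9 was called higher in N2B27 than in PXGL (adjusted p = 0.045 by edgeR), and BOLL and SMC1B were called lower with the inhibitor than in PXGL (0.0136 and 0.0384).

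Genes of the same programs outside the 39 were counted in the same way, where 28.7% of all tested genes were lower and 27.3% higher in N2B27 than in PXGL, and 14.2% were higher and 10.6% lower with the inhibitor. Of 22 tested among 38 other meiosis genes, 9 were lower and 3 higher in N2B27 than in PXGL (median log2 fold change -0.35, against -0.03 over all tested genes), and 2 rose and 2 fell with the inhibitor. REC8, the meiotic kleisin of cohesin, fell 2.35-fold on leaving PXGL (139.3 ± 3.01 to 59.2 ± 2.61 CPM, adjusted p = 9.73e-11). It was 1.22-fold lower with the inhibitor than in N2B27 (48.3 ± 0.983 CPM, adjusted p = 0.00404). STAG3, its cohesin partner, fell 2.45-fold on leaving PXGL (18.5 ± 3.47 to 7.55 ± 0.108 CPM, adjusted p = 1.64e-06). M1AP, a meiotic recombination factor, fell 3.94-fold (11.2 ± 0.302 to 2.84 ± 0.740 CPM) and rose 1.63-fold with the inhibitor (4.61 ± 0.746 CPM, adjusted p = 0.023). SGO2 was at 38.5 ± 1.39, 43.4 ± 3.05 and 55.5 ± 1.77 CPM in PXGL, N2B27 and the inhibitor. It was 1.28-fold higher with the inhibitor than in N2B27 (adjusted p = 0.00309). Among 18 other piRNA and germ granule genes 12 were tested, of which 6 were lower and 2 higher on leaving PXGL, and 2 rose and 2 fell with the inhibitor. TEX19, a germ line and placental gene, was at 4.31 ± 0.632, 1.59 ± 0.400 and 4.02 ± 1.51 CPM. It was 2.71-fold lower in N2B27 than in PXGL (adjusted p = 0.000598) and 2.53-fold higher with the inhibitor than in N2B27 (0.00358). TDRD7 was 2.78-fold lower in N2B27 than in PXGL and 1.66-fold higher with the inhibitor than in N2B27 (adjusted p = 1.67e-06 and 0.00623). GPAT2 was 3.88-fold lower in N2B27 than in PXGL (1.15 against 4.48 CPM, adjusted p = 2.61e-05). With the inhibitor GPAT2 was at 0.654 CPM, 6.8-fold below PXGL (adjusted p = 1.34e-06). PARN was 1.17-fold lower with the inhibitor than in N2B27 (81.2 against 95.4 CPM, adjusted p = 0.0209).

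Primordial germ cell markers moved both ways. Of 13 tested among 15, 3 were lower and 6 higher in N2B27 than in PXGL (28.7% and 27.3% of all tested genes), and 3 rose and 5 fell with the inhibitor (14.2% and 10.6% of all tested genes). PRDM1 encodes BLIMP1, a transcriptional repressor that acts in germ cell specification. PRDM1 fell 5.22-fold on leaving PXGL (32.5 ± 3.38 to 6.21 ± 0.443 CPM, adjusted p = 5.20e-11) and rose 2.91-fold with the inhibitor (18.1 ± 0.568 CPM, adjusted p = 1.16e-07). PRDM14 fell 1.34-fold with the inhibitor (117.9 ± 3.52 to 88.0 ± 4.39 CPM, adjusted p = 0.000122). LIN28A was 1.93-fold higher in N2B27 than in PXGL (1767.2 against 916.7 CPM, adjusted p = 4.62e-10). CXCR4 was 8.94-fold higher in N2B27 than in PXGL (7.61 against 0.844 CPM, adjusted p = 2.34e-08). ITGA6 was 1.26-fold higher with the inhibitor than in N2B27 (230.2 against 183.2 CPM, adjusted p = 0.0011). All 23 genes in the list of known regulators of germ line promoters were tested, and against the same shares of all genes 10 were higher and 6 lower in N2B27 than in PXGL, and 5 rose and 11 fell with the inhibitor. The methyltransferase gene DNMT3B was at 324.2 ± 32.2, 910.2 ± 12 and 333.3 ± 20.3 CPM in PXGL, N2B27 and the inhibitor, and DNMT3A was at 143.6 ± 0.682, 263.5 ± 8.72 and 181.2 ± 0.607 CPM. Both were highest in N2B27 (adjusted p = 4.63e-11 and 1.30e-09 against PXGL, 7.03e-10 and 2.24e-06 for the inhibitor against N2B27). TET2, which oxidises methylated cytosine, had the other order, at 23.4 ± 4.51, 3.26 ± 0.229 and 18.3 ± 0.931 CPM (adjusted p = 3.07e-10 and 1.33e-08). UHRF1, PCGF6 and RNF2 had neither order. In PXGL, N2B27 and the inhibitor UHRF1 was at 119.6, 105.3 and 77.1 CPM and PCGF6 at 65.4, 47.8 and 41.3. RNF2 was at 38, 53.2 and 57 CPM. For the inhibitor against PXGL their adjusted p was 4.4e-07, 6.22e-06 and 7.14e-06. DNA methylation was not measured here, and whether these genes take part in the changes of the germ line members was not tested.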

How the data were processed

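RNA-seq covered 9 libraries of H1 cells, 3 per group. Per the labels' protocols, Trizol RNA went through a kit that depletes ribosomal RNA, while the molecule label names polyA RNA. The authors deposited a single table of expected counts, that is estimated counts, of which 7.13% to 8.09% per library were not whole numbers. The submitters' processing notes name Trim Galore, STAR 2.7.6a, DESeq2 and hg38. Neither the counter, the annotation nor the strandedness is stated, so overlapping genes cannot be told apart by strand. Exons of 13 members overlap another gene, and 6 members carried fractional counts.

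Counts were rounded and fitted with edgeR 4.0.16 (R 4.3.3, TMM, filterByExpr, robust quasi-likelihood), all 9 libraries in 1 model without a block; adjusted p is Benjamini-Hochberg over 15179 tested genes, called under 0.05, and SE was taken from the F statistic. In a check on simulated data for EPZ-6438 against N2B27, run on 14859 genes, 80.6% of 2-fold and 64.2% of 1.5-fold changes were recovered with 8 false calls. Only 98 genes were changed 2-fold and 95 genes 1.5-fold in it. In the data 3752 of 15179 genes were called, so these rates need not hold for the comparison itself. No replicate pair agreed within sampling noise (lowest chi-square per degree of freedom 2.57), so all libraries were kept; p-values measure the spread between them, which may be technical. Alternatives were DESeq2 1.42.0 (size factors, and its own test), other filters, only 2 groups, a replicate block, each library left out, and unrounded counts (added after seeing the data).

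The members and lists were chosen with earlier results of these data known. Members called in at least 1 comparison with a mean of 1 CPM or more in the highest group are described in full, and of other lists up to 3 called genes with the smallest adjusted p are named. PIWIL4, DDX4 and others outside that rule are named to account for every member. Positions and exon lengths are from GENCODE 29, to which 39 of 39 members matched, and promoters from RefSeq (GRCh38.p14). Counting intervals are 95%.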

Additional observations from a re-analysis of the deposited data

How the results depend on the processing

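For the members described in full, no called value changed sign under the alternatives run. Among values that were not called, TDRD9, PIWIL2, PIWIL1 and MOV10L1 for EPZ-6438 against N2B27 changed sign with a single library left out. With size factors or the Wald test of DESeq2, other low-count filters, only the 2 groups compared, unrounded counts or a replicate block, the counts of members were 4 to 6 higher and 2 lower for EPZ-6438 against N2B27, 3 to 4 higher and 13 to 14 lower for N2B27 against PXGL, and 2 to 4 higher and 15 to 18 lower for EPZ-6438 against PXGL. With each library left out they were 2 to 7 and 1 to 2, 2 to 4 and 13 to 15, and 1 to 5 and 12 to 17. Over the genes described in full, 35 values lost and 8 gained their call when a library was left out, and 2 lost and 3 gained it under the other settings. The other 551 and 453 values stayed on their side of the threshold, whether called or not. For EPZ-6438 against PXGL, TDRD9 was not called by the Wald test of DESeq2 (adjusted p = 0.0519), and MAGEB2 was called higher with its size factors (0.044). SYCE2 was not called with size factors (0.0501), the Wald test (0.11) or no filter (0.0955). With no filter PRDM9 was called higher in N2B27 than in PXGL (adjusted p = 0.045), and BOLL and SMC1B were called lower with the inhibitor than in PXGL (0.0136 and 0.0384), BOLL also by the Wald test (0.0269). Over all genes, 3752 were called for EPZ-6438 against N2B27, 5641 with only these 2 groups fitted and 5770 without PXGL replicate 1. The replicate block gave 5 higher and 2 lower, 3 and 14, and 4 and 17. Under the replicate block, for EPZ-6438 against PXGL, TEX15 was called higher (adjusted p = 0.0292), SYCP2 was called lower (0.0401) and SYCE2 was not called (0.0649). Same-numbered libraries correlated at -0.0256 to 0.0369 in their deviations, and 2, 0 and 4 of 6 libraries correlated best with their own number, so the numbers are not taken to pair the libraries. Members with few counts are limited by depth: 3 counts are 0.164 to 0.211 CPM.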
